A study of Mus musculus with 12 samples.

Results

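The 9 genes described here serve lymphocyte egress and homing: the transcription factor Klf2, the sphingosine-1-phosphate (S1P) receptors S1pr1, S1pr2, S1pr3 and S1pr4, the S1P-producing enzyme Sphk1, the chemoattractant receptors Cxcr4 and Gpr183, and the selectin ligand Selplg. They were chosen by name with earlier results of these data known. All 9 were found by Ensembl identifier among the 32121 genes of the deposited count table. Spleen RNA was sequenced from 6 C57BL/6 mice, with 2 pieces cut from each spleen, in 12 libraries. In 3 mice, called SB animals 1 to 3, the genotype combined onc2, a mutagenic transposon, with VEC-Cre and the transposase of the Sleeping Beauty (SB) system. The other 3 mice, WT animals 1 to 3, were labelled as wild type. VEC-Cre is a Cre recombinase driven by the VE-cadherin promoter, which is active in endothelium, including the embryonic endothelium from which blood stem cells arise. The labels used here state neither ages nor any treatment, and do not say that the WT mice were littermates. The study set the pieces side by side to judge how clonal each spleen was.

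S1P is a lipid signal that is abundant in blood and lymph and scarce inside lymphoid tissue. Lymphocytes sense this gradient through S1pr1 and follow it out of the tissue, while Cd69 removes the receptor from the cell surface and holds cells back. Klf2 keeps S1pr1 expressed in resting lymphocytes. Within the spleen, S1pr1 and S1pr3 also hold marginal zone B cells beside the blood sinus, Gpr183 follows oxysterols to the outer follicle, Cxcr4 binds Cxcl12, and the chemokine receptors Ccr7 and Cxcr5 lead T and B cells into the white pulp.

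Libraries held 14320833 to 22031026 counts. Levels are given as CPM, counts scaled to a common library size with TMM factors, and those of an animal come from the summed counts of both of its pieces. Of 6 spleen stroma markers 1 rose (Pdgfrb, log2 0.87), 1 fell (Madcam1, log2 -3.46, at 3.96, 0.541 and 4.87 CPM across SB animals 1, 2 and 3 against 27.6 to 39.4 CPM in WT) and 4 did not pass. Among the latter, Tlx1, a transcription factor required for spleen formation, ranged from 9.79 to 18.4 CPM over SB spleens and from 20.0 to 25.7 CPM over WT spleens. Of all 17328 genes tested 7.99% rose and 9.1% fell. Lymphocyte markers were not alike in the groups. All 10 of 10 B cell markers fell in SB spleens, with a summed level of 69.0 to 181 CPM over the 6 SB libraries against 8468 to 11000 CPM over the 6 WT libraries, and 7 of 10 T cell markers fell, with 25.8 to 163 against 774 to 1041 CPM. Xist, which silences an X chromosome in females, was at 951 to 2590 CPM in the libraries of SB animals 1 and 2 and at most 3.45 CPM in the other 8 libraries, so SB animal 3 alone of the SB animals had a level like that of WT. The Y-linked gene Ddx3y stood at 57.6 to 116.6 CPM in those 8 libraries and at most 0.361 CPM in the other 4, and sex and genotype cannot be fully told apart.

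Promoter windows were matched for 7 of the 9 genes in RefSeq (build GRCm38.p6), and 3 are printed 5′ to 3′ because they are the start regions of the transcription factor of the set (Klf2), of the member with the largest decrease (S1pr3) and of a member with no call (Cxcr4). They were cut to the bases upstream of every annotated start, at chr8:72318812-72319032 on the plus strand for Klf2, chr13:51408368-51408617 on the plus strand for S1pr3 and chr1:128592300-128592549 on the minus strand for Cxcr4. Capitals mark the MEF2 motif, the binding sequence of the factors through which the ERK5 kinase pathway induces Klf2, and CACCC, the core of Krüppel-like factor sites, on either strand (GGGTG as read here).
Klf2: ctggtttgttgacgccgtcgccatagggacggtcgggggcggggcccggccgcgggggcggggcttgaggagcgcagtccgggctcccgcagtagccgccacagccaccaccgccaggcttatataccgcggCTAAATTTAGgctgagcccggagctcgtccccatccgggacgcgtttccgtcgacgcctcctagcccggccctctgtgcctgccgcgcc
S1pr3: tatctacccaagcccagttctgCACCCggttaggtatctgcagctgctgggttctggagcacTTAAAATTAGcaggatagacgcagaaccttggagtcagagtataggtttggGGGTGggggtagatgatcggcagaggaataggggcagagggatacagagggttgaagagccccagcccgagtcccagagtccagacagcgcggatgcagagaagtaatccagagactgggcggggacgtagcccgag
Cxcr4: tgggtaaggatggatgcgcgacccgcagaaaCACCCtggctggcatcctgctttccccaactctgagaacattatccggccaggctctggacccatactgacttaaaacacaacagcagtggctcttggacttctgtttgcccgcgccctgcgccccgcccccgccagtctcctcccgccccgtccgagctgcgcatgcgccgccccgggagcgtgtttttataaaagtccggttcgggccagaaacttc
The MEF2 motif was found in Klf2 and S1pr3, 2 of the 7 windows, and in 3.01% of 27025 windows of 250 bases. CACCC was found in S1pr2, S1pr3, S1pr4 and Cxcr4, 4 of the 7 windows, and in 51.3% of all windows. The 27025 windows were the first listed for each gene and were not cut at other starts. After the cut the window of Klf2 was 221 bases long, that of Gpr183 248 and that of Sphk1 75 bases, so fewer positions were searched in them. As the MEF2 motif is already tied to Klf2 induction, its match in Klf2 is no new result, and 2 of 7 is not read as an excess. These matches describe letters only and were not tested as sites.

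The comparison of SB with WT spleens asked how the RNA of the 9 genes differs with the genotype. Klf2, S1pr1, S1pr3 and Gpr183 fell in SB spleens, and S1pr2, S1pr4, Cxcr4, Sphk1 and Selplg did not pass the test. All 9 members passed the filter on low counts. A decrease was called for 4 of the 9, where 9.1% of all 17328 genes tested were called lower, and an increase for 0 of the 9 (edgeR quasi-likelihood test), where 7.99% were called higher and 17.1% were called in either direction. The unadjusted edgeR p lay under 0.05 for 6 of the 9, Sphk1 (0.0350) and Selplg (0.0339) beside the 4 called. It did so for 5995 of all 17328 genes tested. DESeq2 called Sphk1 higher, as it did 2911 of the 17328 genes. In 6 of the 9 the 6 SB libraries all lay below the 6 WT libraries, as they did for 16.6% of genes tested, and 29.6% of genes did not overlap in either direction. The median log2 change of the 9 was -1.32, against 0.11 over all genes tested. As the 9 were chosen with earlier results of these data known, setting them beside all genes is not a test of the set. In such bulk samples, fewer cells of a type and less RNA per cell cannot be told apart.

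**Figure D1:**
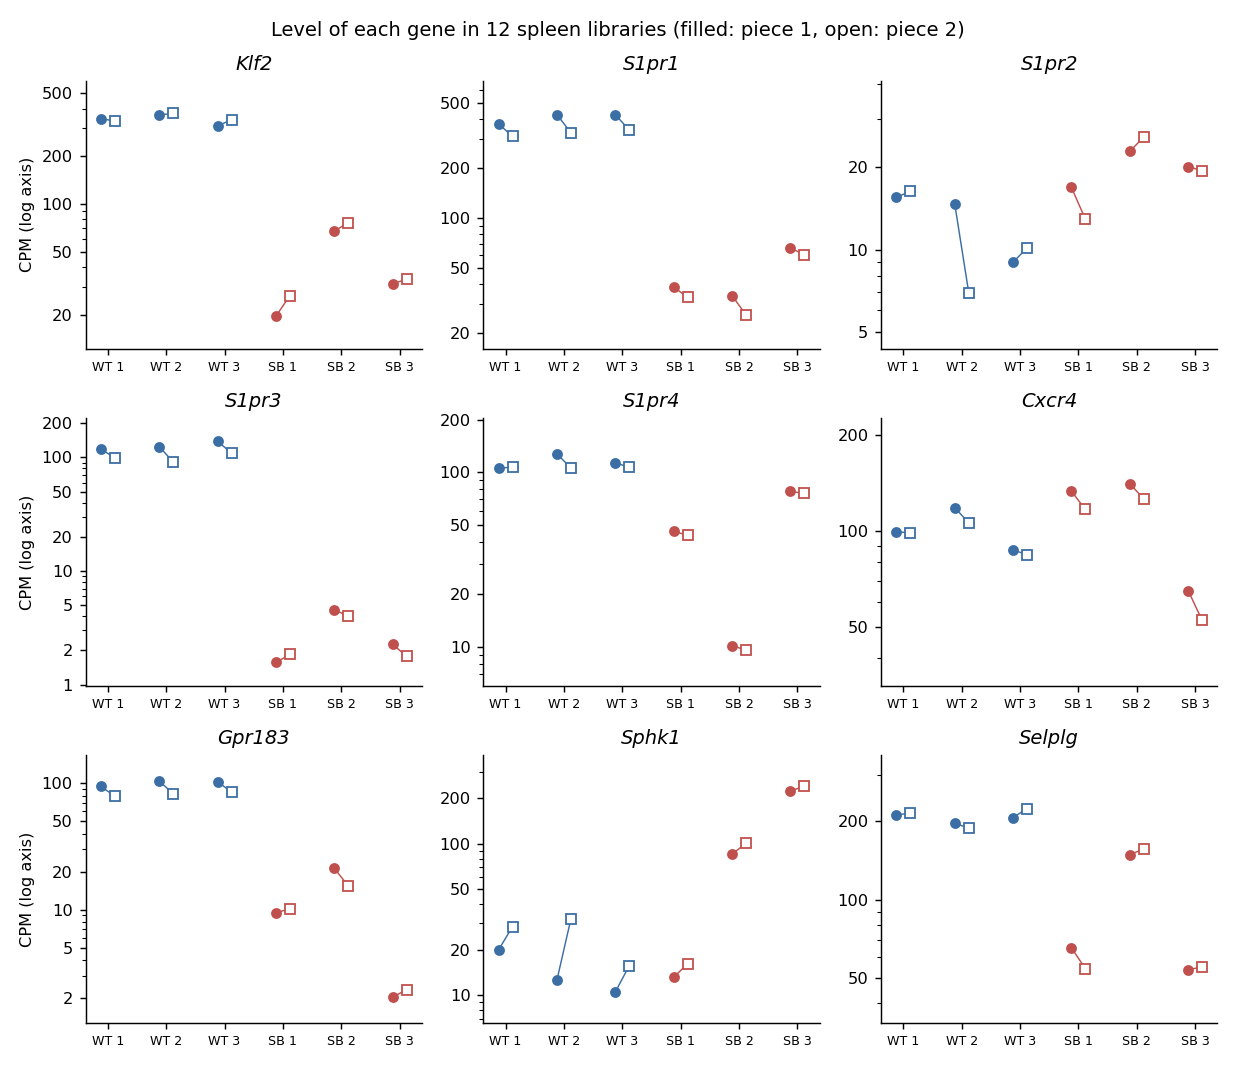
Level of each of the 9 genes in CPM (log axis) for every animal, with piece 1 as a filled circle joined to piece 2 as an open square, WT in blue and SB in red. For Klf2, S1pr1, S1pr3, S1pr4, Gpr183 and Selplg every SB library lies below every WT library, while S1pr2, Cxcr4 and Sphk1 overlap.

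Klf2 (ENSMUSG00000055148, GRCm38 chromosome 8, 72319033 to 72321656) is the transcription factor of the set. It stood at 22.3, 72.9 and 32.3 CPM across SB animals 1, 2 and 3. In WT animals 1, 2 and 3 it stood at 341, 370 and 324 CPM. The groups were far apart, and SB animal 2 kept the most Klf2 RNA of the SB animals. The mean was 42.5 ± 26.8 CPM in SB and 345 ± 23.6 CPM in WT (SD, n = 3 each), a log2 change of -2.99 with an SE of 0.47 (edgeR adjusted p = 0.0137). Without WT animal 1, 2 or 3 the log2 change stayed at -3.01, -2.95 and -3.05 and the edgeR adjusted p rose to 0.0628, 0.0717 and 0.0661, and the call was lost each time. Without SB animal 2 the log2 change was larger, at -3.63 (edgeR adjusted p = 0.00168).

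S1pr1 (ENSMUSG00000045092, chromosome 3, 115710433 to 115715072), the egress receptor and a target of Klf2, stood at 35.2, 29.3 and 62.9 CPM across SB animals 1, 2 and 3. The WT animals held 341.5, 378 and 388 CPM. Here SB animal 3, not SB animal 2, held the most. The mean was 42.5 ± 17.9 CPM in SB against 369 ± 24.5 CPM in WT (SD, n = 3 each), a log2 change of -3.09 with an SE of 0.33 (edgeR adjusted p = 0.00633). S1pr1 was called in 14 of 14 alternative analyses and in each of the 6 fits that left out an animal, with log2 changes of -3.48 to -2.88 in the latter. S1pr1 is also expressed by endothelium. Of 10 endothelial markers 2 rose (Stab2, log2 1.09, and Egfl7, log2 0.90), 1 fell (Pecam1, log2 -1.16) and 7 did not pass. Their summed level was 585 to 951 CPM in SB libraries and 550 to 735 CPM in WT libraries. The part of endothelium in the S1pr1 values was not tested.

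S1pr3 (ENSMUSG00000067586, chromosome 13, 51408639 to 51422797), a receptor of marginal zone B cells and of stromal and endothelial cells, showed the largest decrease of the 9. It stood at 1.66, 4.27 and 2.03 CPM across SB animals 1, 2 and 3. WT animals held 108, 108 and 126 CPM, a level that no SB library approached. The SB libraries held 30 to 79 counts of S1pr3 and the WT libraries 1400 to 2586. The log2 change was -5.40 (SE 0.44, edgeR adjusted p = 0.00359), a 42.1-fold difference, and S1pr3 was called in 14 of 14 alternatives. Its exons share 45 bases with those of Gm32834 on the other strand, an RNA gene not analysed here, and the unstranded libraries cannot separate the 2.

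S1pr4 (ENSMUSG00000044199, chromosome 10, 81497747 to 81500132), an S1P receptor of blood cells, was uneven between SB animals: it stood at 44.1, 9.92 and 76.7 CPM across SB animals 1, 2 and 3. The WT animals were close together at 107, 117 and 110 CPM. All SB libraries lay below all WT libraries, but the log2 change of -1.32, with an SE of 0.67, did not pass the test (edgeR adjusted p = 0.215). Without SB animal 2 the log2 value was -0.85 and without SB animal 3 it was -1.999, both uncalled (edgeR adjusted p = 0.0577 and 0.109). With limma on the 12 libraries, which takes the animal as a random effect, S1pr4 was called (log2 -1.72, adjusted p = 0.0152).

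S1pr2 (ENSMUSG00000043895, chromosome 9, 20962361 to 20976781), which signals through Gna13 and Arhgef1 to confine B cells to germinal centres, went the other way. It stood at 14.8, 24.7 and 19.7 CPM across SB animals 1, 2 and 3 and at 16.0, 10.9 and 9.504 CPM in WT animals. The libraries overlapped, and the log2 change of 0.73, with an SE of 0.31, did not pass (edgeR adjusted p = 0.158). S1pr2 was called in 0 of 14 alternatives by edgeR, DESeq2 or limma, and its unadjusted edgeR p was 0.0582. Its log2 value ranged from 0.54 to 0.97 over these alternatives.

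Sphk1 (ENSMUSG00000061878, chromosome 11, 116530925 to 116536674), a kinase that makes S1P from sphingosine, was the member with the highest log2 value and the least even. It stood at 14.3, 95.3 and 232 CPM across SB animals 1, 2 and 3, against 24.7, 22.4 and 12.8 CPM in WT animals. SB animal 1 lay within the WT range, while SB animals 2 and 3 lay far above it. The log2 change of 2.54, with an SE of 0.93, did not pass (edgeR adjusted p = 0.115). It was called without SB animal 1 (log2 3.06, edgeR adjusted p = 0.0181) and with DESeq2 (log2 2.53, adjusted p = 0.0176), and without SB animal 3 the log2 value was 1.49 (edgeR adjusted p = 0.255). The antisense gene Gm29292 shares 192 exon bases with Sphk1 and held at most 12 counts in a library.

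Cxcr4 (ENSMUSG00000045382, chromosome 1, 128588199 to 128592293), the receptor of Cxcl12, overlapped between the groups: it stood at 123, 133 and 58.99 CPM across SB animals 1, 2 and 3 and 99.5, 113 and 86.0 CPM in WT animals. SB animals 1 and 2 lay above and SB animal 3 below every WT animal. The log2 value was 0.12 (SE 0.33, edgeR adjusted p = 0.833), and it took the other sign without SB animal 1 (-0.03) or SB animal 2 (-0.08).

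Gpr183 (ENSMUSG00000051212, chromosome 14, 121952551 to 121965195), the oxysterol receptor EBI2 of B cells and dendritic cells, stood at 9.59, 17.9 and 2.17 CPM across SB animals 1, 2 and 3. WT animals held 86.5, 93.9 and 95.2 CPM. The lowest value, in SB animal 3, was far from that of SB animal 2, though all SB libraries lay below all WT libraries. The log2 change was -3.18 (SE 0.73, edgeR adjusted p = 0.0365). The call was lost without SB animal 1 (edgeR adjusted p = 0.0716) and without WT animal 1, 2 or 3 (edgeR adjusted p = 0.117, 0.125 and 0.127), at log2 values of -3.24 to -3.17. Gpr183 was called without SB animal 2, at a larger log2 change of -3.93, and without SB animal 3, at -2.70. Gpr183 lies within the span of Ubac2 on the other strand, with 0 shared exon bases, and Ubac2 itself had a log2 change of -0.69 (edgeR adjusted p = 0.0439).

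Selplg (ENSMUSG00000048163, chromosome 5, 113818536 to 113832644) encodes PSGL-1, the ligand through which leukocytes roll on P-selectin. It stood at 59.2, 154 and 54.5 CPM across SB animals 1, 2 and 3 and at 214, 193 and 214 CPM in WT animals. Every SB library was below every WT library, and SB animal 2 was nearest to them. The log2 change of -1.18, with an SE of 0.43, did not pass (edgeR adjusted p = 0.113). It was called without SB animal 2 (log2 -1.83, edgeR adjusted p = 0.00197) and with limma on the 12 libraries (log2 -1.39, adjusted p = 0.00378).

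**Figure D2:**
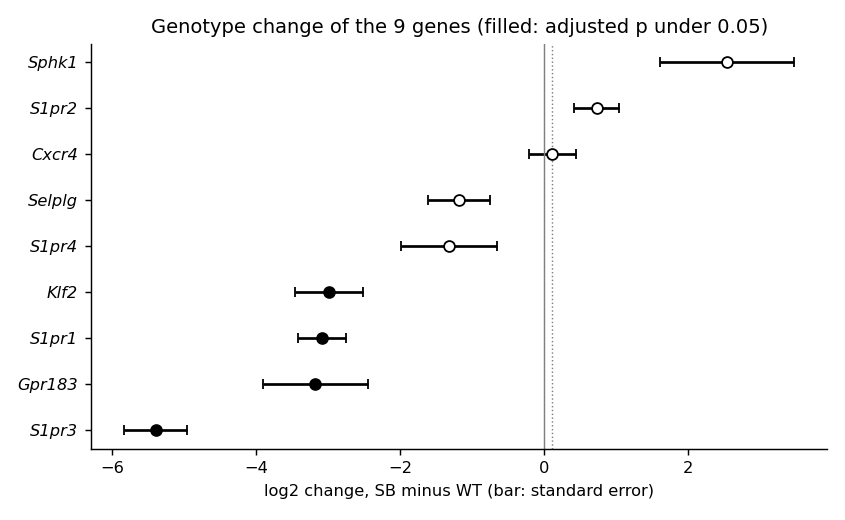
Log2 change of each of the 9 genes, SB minus WT, with its standard error as the bar, filled where the adjusted p was under 0.05. The dotted line at 0.11 is the median of all genes tested. S1pr3, at -5.40, lies farthest from it, and S1pr2, Cxcr4 and Sphk1 lie to the right of 0.

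With SB animal 3 alone against WT, a comparison added after the data were seen because that animal's Xist and Ddx3y were close to those of WT, 7 of the 9 genes were called lower. They were Klf2 (log2 -3.40), S1pr1 (log2 -2.54), S1pr3 (log2 -5.80), Gpr183 (log2 -5.39), Selplg (log2 -1.91), Cxcr4 (log2 -0.74) and S1pr4 (log2 -0.52), and Sphk1 was called higher (log2 3.55, edgeR adjusted p = 0.0156). In this fit 31.4% of 18883 genes were called lower and 30.5% higher. It rests on 1 SB spleen and assumes that it varies as the WT spleens do.

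Levels can be compared between genes only per exon length. In WT spleens Klf2 was the most abundant of the 9 at 187 ± 12.8 CPM per kb (SD, n = 3), followed by S1pr1 at 121 ± 8.05 CPM per kb, and the 6 libraries of each did not overlap with those of the next gene. Cxcr4, Selplg and S1pr4 came next at 55.0 ± 7.35, 48.5 ± 2.86 and 46.7 ± 2.16 CPM per kb, with overlapping libraries. Gpr183 and S1pr3 followed at 31.8 ± 1.63 and 25.6 ± 2.24 CPM per kb and overlapped each other. Sphk1 and S1pr2 were lowest at 4.18 ± 1.33 and 1.52 ± 0.43 CPM per kb. In SB spleens Cxcr4 led at 58.1 ± 22.2 CPM per kb, and the libraries of Cxcr4, Sphk1, Klf2, Selplg, S1pr4 and S1pr1 overlapped from each gene to the next in that order. S1pr3 was last at 0.594 ± 0.316 CPM per kb.

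The makeup of the S1P receptor RNA was described by the share of each receptor. Summed over S1pr1 to S1pr5, the level came to 32.4, 18.2 and 55.9 CPM per kb in SB animals 1, 2 and 3 and to 186, 201 and 205 in WT animals. S1pr1 made up 60.4%, 61.9% and 62.2% of this sum in the WT animals, and 35.7%, 53.0% and 36.9% in SB animals 1, 2 and 3. S1pr4 made up 57.1%, 22.9% and 57.5% in SB animals 1, 2 and 3 against 22.6% to 24.4% in WT, so it was the leading receptor RNA in SB animals 1 and 3 and S1pr1 was in SB animal 2. S1pr2 took 0.582% to 1.08% in WT and 5.73%, 17.0% and 4.42% in SB animals 1, 2 and 3. S1pr3 took 12.1% to 13.8% in WT and 0.812% to 5.26% in SB. Exact two-sided permutation tests over the animals gave p = 0.1 for the sum and for the shares of S1pr1, S1pr2 and S1pr3, the smallest p that 3 against 3 allows, 0.3 for S1pr4 and 1 for S1pr5 (0.15, 0.36 and 1 after Benjamini-Hochberg adjustment over 6 tests).

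**Figure D3:**
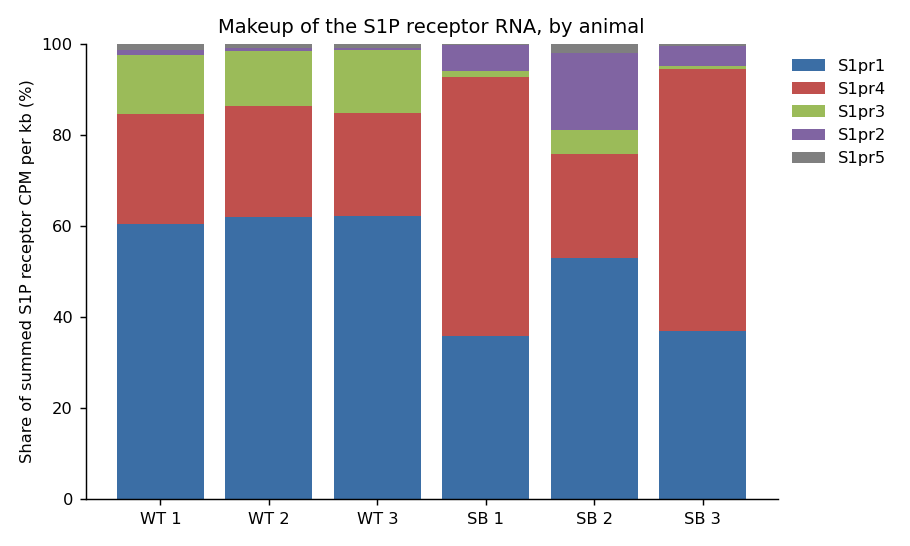
Share of each S1P receptor in the summed receptor level (CPM per kb, in percent), 1 bar per animal. WT bars are nearly alike, with S1pr1 at 60.4% to 62.2%, and S1pr4 takes 57.1% and 57.5% in SB animals 1 and 3 but 22.9% in SB animal 2.

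Differences between the 3 SB spleens were common to most genes, not to these 9 alone. With the spread between pieces of a spleen as error, 8 of the 9 genes differed among SB animals, all but S1pr2 (edgeR adjusted p = 0.0796), where 72.8% of 15523 genes tested did. S1pr4, Selplg, Gpr183 and Klf2 gave the highest F values, at 280, 122, 96.4 and 75.3. Among WT animals 0 of the 9 passed (edgeR quasi-likelihood test, with unadjusted p under 0.05 for S1pr2 at 0.0468 and Cxcr4 at 0.0292), where 0.335% of genes did. These p-values compare these spleens only.

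Marker lists moved with the SB animals. The median log2(CPM + 1) difference from the WT mean, a scale that understates the change of low genes, was -6.69, -6.48 and -6.96 for B cell markers in SB animals 1, 2 and 3, and -4.55, -2.40 and -5.12 for T cell markers. Klf2 stood at -3.89, -2.23 and -3.37 on this scale, Gpr183 at -3.13, -2.29 and -4.87 and Selplg at -1.79, -0.42 and -1.91, so SB animal 2 was nearest to WT in all 3 genes. It was also nearest to WT in the medians of B and T cell markers and in those of NK cell (-2.46, -0.46 and -2.65), dendritic cell (-2.60, -0.37 and -2.86) and spleen stroma markers (-1.05, -0.46 and -1.24). The same held for endothelial (0.55, 0.22 and 1.24) and megakaryocyte medians (1.94, 1.19 and 2.39). SB animal 2 was farthest from WT in the neutrophil (-1.17, 3.18 and 1.42), macrophage and monocyte (-1.20, 2.89 and -0.13) and erythroid medians (0.82, 2.91 and 2.63). Among the other genes S1pr3 (-5.43, -4.45 and -5.25) was nearest to WT in SB animal 2, and S1pr2 (0.30, 1.00 and 0.69) was farthest. S1pr1 (-3.35, -3.61 and -2.53) and S1pr4 (-1.32, -3.36 and -0.53) were lowest in SB animal 2. Cxcr4 and Sphk1 were nearest to WT in SB animal 1. SB animal 2 also held the most macrophage and monocyte marker RNA, a summed 10836 CPM against 479 and 937 CPM in SB animals 1 and 3 and 818 to 1436 CPM in WT libraries. Of these 8 macrophage and monocyte markers, as of 8 neutrophil and 8 NK cell markers, 0 were called by edgeR, and of 8 dendritic cell markers 2 fell. Erythroid and megakaryocyte markers rose for 4 of 8 and 2 of 8, with summed levels of 1349 to 10540 and 1276 to 6148 CPM in SB libraries against 741 to 3610 and 276 to 881 CPM in WT libraries. The part of these cell types in the values of the 9 genes was not tested.

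**Figure D4:**
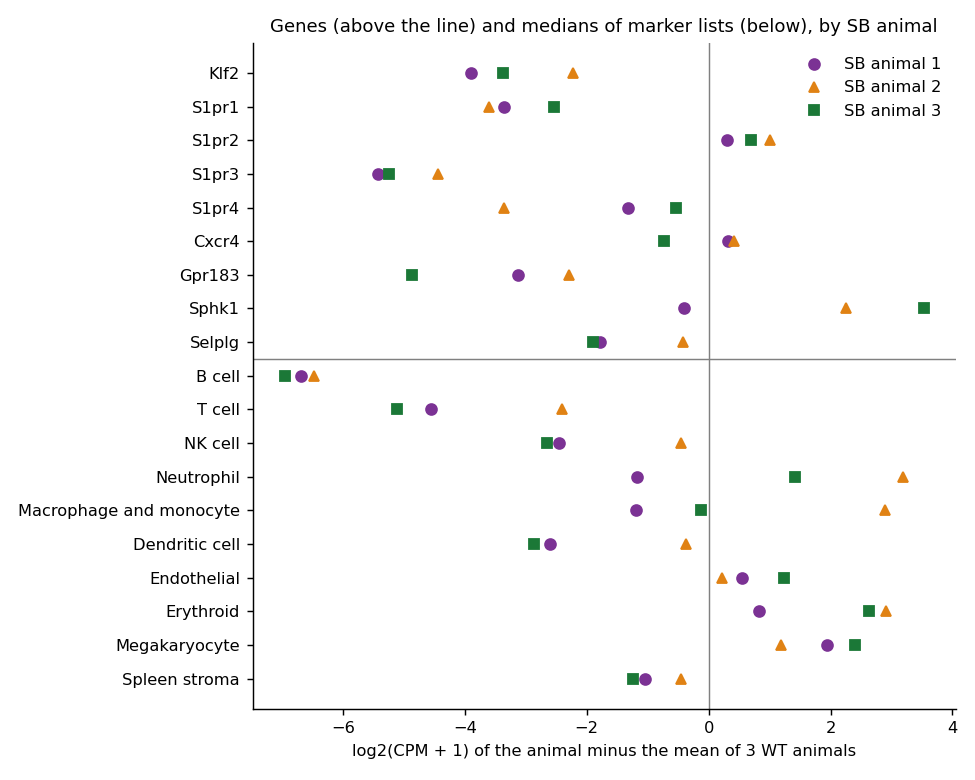
Difference of each SB animal from the mean of 3 WT animals on the log2(CPM + 1) scale, for the 9 genes above the line and as medians of marker lists below it. B cell medians lie at -6.96 to -6.48 in all 3 animals, while S1pr4, Sphk1 and the macrophage list are spread widely between them.

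The lists below, like the 9 genes, were chosen with earlier results of these data known. Their counts stand beside 7.99% of all 17328 genes tested called higher and 9.1% called lower, and no list was tested as a set. Other genes that make, break or carry S1P were taken as a list of 16, of which 15 were tested. Mfsd2b, which exports S1P from red cells and platelets, rose from 27.9 to 82.5 CPM in WT animals to 559, 266.6 and 689 CPM across SB animals 1, 2 and 3 (log2 3.12, SE 0.55, edgeR adjusted p = 0.0186). The ceramidase Acer2 (log2 1.89) and the ceramide synthase Cers2 (log2 0.80, edgeR adjusted p = 0.0471) rose too, and S1pr5, the S1P receptor of NK cells, fell (log2 -3.19, edgeR adjusted p = 0.0187). The other 11 did not pass, and the median log2 change of the list was 0.52. Spns2, the S1P exporter of endothelium, stood at 690, 15.4 and 159 CPM across SB animals 1, 2 and 3 against 65.2 to 75.6 CPM in WT, and the lyase Sgpl1, which destroys S1P, at 38.5, 328 and 46.6 CPM against 176 to 194 CPM. SB animal 2 thus had the lowest Spns2 and the highest Sgpl1 of the 6 animals, and neither gene passed.

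In the list of 20 genes of S1P receptor signalling and desensitisation 1 rose and 4 fell, with a median log2 change of -0.22. Of all genes tested 7.99% rose and 9.1% fell. Arhgef1, the exchange factor through which S1pr2 acts on Rhoa, fell (log2 -1.50, SE 0.21, edgeR adjusted p = 0.0108), as did Grk6, a receptor kinase (log2 -1.25), Rac2, a GTPase of cell migration (log2 -1.13), and Rgs13, a G protein regulator of germinal centre B cells, which was at 0 CPM in SB animals 1 and 3 and 0.0902 CPM in SB animal 2 against 2.40 to 5.52 CPM in WT. Gnaq, a G protein subunit, rose (log2 1.11, edgeR adjusted p = 0.0183). Cd69, which pulls S1pr1 from the surface, stood at 16.3, 9.23 and 23.4 CPM across SB animals 1, 2 and 3 against 38.6 to 42.9 CPM in WT and did not pass (edgeR adjusted p = 0.0549). The subunit genes Gnai2 and Gna13 did not pass either, at log2 values of -0.18 and 0.23.

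In the list of 22 Klf family genes, Klf2 regulators and targets 3 rose and 2 fell, with a median log2 change of -0.06 over the list. Over all genes tested 17.1% were called in either direction. Foxo1, a transcription factor that induces Klf2 in T cells, was one that fell, with a log2 change of -2.68 and an SE of 0.25 (edgeR adjusted p = 0.00497). The 3 that rose were other Klf genes, Klf5 (log2 5.88), Klf9 (log2 2.72) and Klf10 (log2 1.595). Klf5 was close to the detection limit in WT, at 0.0329 to 0.273 CPM. Itgb7, an integrin subunit that Klf2 regulates, stood at 30.3, 32.2 and 348 CPM across SB animals 1, 2 and 3 against 374 to 396 CPM in WT and did not pass. The endothelial genes Nos3 and Thbd, known targets of Klf2 in vessels, did not pass (log2 0.90 and -0.10).

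In the list of white pulp homing receptors and ligands 7 of 15 genes tested fell and 0 rose, with a median log2 change of -2.04 (edgeR quasi-likelihood test). The share of all genes tested that fell was 9.1%. Those that fell were the receptors Ccr7 (log2 -5.77), Cxcr5 (log2 -6.60), Ccr6 (log2 -5.39) and Ccr9 (log2 -3.34) and the chemokines Ccl19 (log2 -5.31), Ccl21a (log2 -5.69) and Cxcl13 (log2 -4.17). Cxcl12, the ligand of Cxcr4, stood at 79.0, 198 and 73.6 CPM across SB animals 1, 2 and 3 against 308 to 372 CPM in WT and did not pass (log2 -1.50, edgeR adjusted p = 0.0609). Of the genes that make the ligand of Gpr183, Ch25h and Cyp7b1 were low in all animals, at most 8.81 and 8.54 CPM, both in SB animal 2, and did not pass. In the list of 16 selectins and genes that modify P-selectin ligand, with a median log2 change of 0.81, 2 rose, 1 fell and 13 did not pass. Called in either direction were 17.1% of all genes tested. Those that rose were St3gal4, a sialyltransferase for selectin ligands (log2 2.16), and Podxl, a sialomucin (log2 3.98). Selp, P-selectin itself, stood at 150, 12.6 and 7.21 CPM across SB animals 1, 2 and 3 against 1.86 to 4.80 CPM in WT and did not pass (edgeR adjusted p = 0.0900).

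The genes with the most similar pattern were found by the root-mean-square difference of centred log2 CPM over the 12 libraries, among 11206 candidates. Klf2 was closest to Mllt6 (0.15) and Shisa5 (0.19), S1pr1 to Id3 (0.22) and the pseudogene H2-T-ps (0.22), and S1pr3 to Lta (0.26) and Fcrl1 (0.26). Gpr183 was closest to Klk8 (0.17) and Kynu (0.23), and Selplg to Samhd1 (0.13) and Vav2 (0.15). Cxcr4 was closest to Klhl5 (0.16) and Ppp5c (0.17), S1pr2 to Rell1 (0.24) and Anxa1 (0.27), Sphk1 to Ache (0.25) and Mir8116 (0.27), and S1pr4 to Rasal3 (0.21) and Pkp3 (0.24). Among the 9 genes the nearest pair was S1pr2 and Cxcr4 at 0.65, then Klf2 and S1pr1 at 0.73, and the farthest was S1pr3 and Sphk1 at 3.87. The nearest genes were picked as the closest of 11206 candidates. That they lie closer to a member than any other member does is largely given by that choice, and no conclusion is drawn from it.

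The comparison of pieces asked whether both pieces of a spleen hold the same RNA. Titles call the pieces section 1 and section 2 in SB spleens and section A and section B in WT spleens. Section A was taken as piece 1 and section B as piece 2. No title says that a piece number marks the same region in each spleen. In WT spleens, S1pr1 and S1pr3 were lower and Sphk1 was higher in piece 2 than in piece 1, 3 of the 9 genes, where 9.24% of 15523 genes were called. S1pr1 went from 373, 424 and 424 CPM in piece 1 of WT animals 1, 2 and 3 to 313, 330 and 342 CPM in piece 2 (log2 -0.31, SE 0.07, edgeR adjusted p = 0.0238, with the animal as a block). S1pr3 went from 119, 125 and 138 CPM to 98.9, 91.2 and 109 CPM (log2 -0.35, SE 0.07, edgeR adjusted p = 0.0167). Sphk1 went from 19.9, 12.6 and 10.5 CPM to 28.4, 32.0 and 15.7 CPM (log2 0.81, SE 0.14, edgeR adjusted p = 0.0112). All 3 differences had the same direction in 3 of 3 WT animals. All 3 were also called by DESeq2. No call was left without WT animal 2 or 3, with edgeR adjusted p of 0.0928 to 0.219 for these genes, and S1pr1 was not called without WT animal 1 (edgeR adjusted p = 0.0634).

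Other RNA differed between the WT pieces too. Of 8 erythroid markers 8 were higher in piece 2, with summed levels of 2853, 1191 and 741 CPM in piece 1 and 3610, 3517 and 1941 CPM in piece 2 of WT animals 1, 2 and 3. Endothelial markers were higher in piece 2 for 6 of 10 (median log2 0.45), with 593, 604 and 550 CPM in piece 1 and 661, 735 and 664 CPM in piece 2. Macrophage and monocyte markers were higher for 5 of 8 (median log2 0.55), spleen stroma markers for 3 of 6 (0.61), neutrophil markers for 3 of 8 (0.95), NK cell markers for 2 of 8 (0.48) and megakaryocyte markers for 1 of 8 (0.37), and 0 of 10 T cell and 0 of 8 dendritic cell markers were called by edgeR. The summed B cell markers stood at 9536, 11000 and 10590 CPM in piece 1 and 8468, 9095 and 9083 CPM in piece 2, with 0 of 10 called by edgeR. In the pathway lists Cxcr5 (log2 -0.46) and Cxcl13 (log2 -0.62) were lower in piece 2, and Mfsd2b (log2 0.80), S1pr5 (log2 1.11) and Cxcl12 (log2 0.54) were higher. The part of these differences in the values of S1pr1, S1pr3 and Sphk1 was not tested.

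In SB spleens 0 of the 9 genes differed between pieces, where 0% of 15523 genes were called by edgeR and 302 by DESeq2, and 3305 genes had an unadjusted p under 0.05. Klf2 was higher in piece 2 in 3 of 3 SB animals (log2 0.23, SE 0.08), as was Sphk1 (log2 0.21, SE 0.12), and S1pr1 was lower in 3 of 3 (log2 -0.23, SE 0.08), as were Cxcr4 (log2 -0.21, SE 0.07) and S1pr4 (log2 -0.05, SE 0.08). The unadjusted p was 0.0171 for Klf2, 0.0114 for S1pr1, 0.00878 for Cxcr4, 0.113 for Sphk1 and 0.549 for S1pr4, and the edgeR adjusted p 0.155, 0.138, 0.130, 0.346 and 0.761. The piece difference itself was not shown to differ between genotypes for any of the 9, where 1.28% of genes were called, with Sphk1 the nearest to the threshold (log2 -0.60, SE 0.19, SB minus WT, unadjusted p = 0.00904, edgeR adjusted p = 0.132). That contrast sets numbered SB sections against lettered WT sections, which no title matches to each other. For S1pr1 the gap between pieces was small beside that between genotypes, with 25.8 to 66.0 CPM over SB libraries and 313 to 424 CPM over WT libraries.

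**Figure D5:**
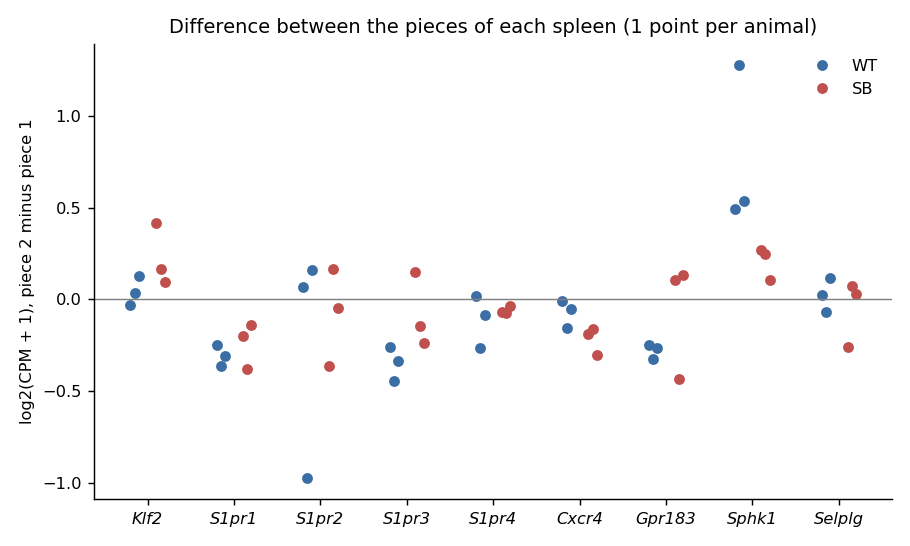
Difference between piece 2 and piece 1 of each spleen on the log2(CPM + 1) scale, 1 point per animal, WT in blue and SB in red. All 3 WT points lie below 0 for S1pr1, S1pr3, Cxcr4 and Gpr183 and above 0 for Sphk1, where they reach 1.28.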

How the data were processed

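The authors deposited 1 table of gene counts for 12 libraries. Per the labels' protocols, total RNA from snap-frozen spleen pieces went into unstranded poly-A libraries, and per the submitters' processing notes STAR 2.5.3a, limma and the builds mm10 and GRCm38 were used. The counting rule for shared reads and the annotation release are not stated there. Of 32121 genes, 32026 matched GENCODE vM21, which gave positions and exon lengths, and the other 95 made up 0.0271% of counts or less in each library.

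Groups came from the genotype label. The main test was edgeR 4.0.16 (R 4.3.3, quasi-likelihood, TMM, filterByExpr, robust) on counts summed over both pieces of each animal, 3 SB against 3 WT, two-sided, with Benjamini-Hochberg adjustment over 17328 genes and a threshold of 0.05. Both groups shared 1 spread estimate in this test, although 72.8% of genes differed among SB animals and 0.335% among WT animals. Pieces were compared over 12 libraries and 15523 genes with the animal as a block, and animals with an F test. The titles name the animal of each piece, and the deviations of both pieces from their group means correlated at 0.916, 0.933 and 0.930 in SB animals and 0.344, 0.151 and 0.410 in WT animals over genes. Alternatives were DESeq2 1.42.0, limma 3.58.1, RLE factors, other filters, single pieces and leaving out each animal. Scripts were tested on simulated data. Genes named are the 9 members, the 2 nearest in pattern to each (mean of at least 5 CPM, prior count 2), up to 4 called genes per list and direction by adjusted p, and genes a sentence needed, such as uncalled list genes, which were chosen after their values were seen. The members and lists were chosen with earlier results of these data known. Counts are not unique molecules, and low counts, such as the 30 to 79 of S1pr3 in SB libraries, limit precision. The values of 1 listed gene are not reported here.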

Additional observations from a re-analysis of the deposited data

Results flagged for a closer look

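S1pr4 in WT spleens held 1 library far from the others: piece 1 of WT animal 2 stood at 127.4 CPM, and its gap to the nearest of the other 5 WT libraries was 0.650 of the whole range of the 6. Such a gap was looked for in 18 groups of 6 libraries, chance gives one in about 1 in 20 groups, and the 6 libraries are pairs from 3 animals.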

How the results depend on the processing

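S1pr1 and S1pr3 were called lower in SB in 14 of 14 alternatives, Klf2 in 11 and Gpr183 in 10. The 2961 genes called between genotypes became 5614 with DESeq2 and 11680 with SB animal 3 alone, which called 7 members lower. Leaving out an animal gave 253 to 6174 genes and 2 to 5 members, and the lowest counts came without a WT animal (94 higher and 305 lower without WT animal 1, 19 and 234 without WT animal 2, 78 and 298 without WT animal 3, against 1385 and 1576). The cause was not tested. Cxcr4 lay between -0.085 and 0.40 without an animal, with the other sign without SB animal 1 (-0.026) or 2, and at -0.74 with SB animal 3 alone. Between SB pieces, 0 genes became 1357 with no filter and 302 with DESeq2, and 0 to 663 without an animal. Over the fits without an animal, S1pr2 ranged from -0.20 to 0.070 and Selplg from -0.10 to 0.065, changing sign without SB animal 1, and Gpr183 from -0.32 to 0.15, changing sign without SB animal 2. Between WT pieces, 1435 genes and 3 members became 0 and 0 with no replicate block (S1pr1 log2 -0.31, adjusted p = 1), 2194 genes with no filter, and 0 to 3383 genes and 0 to 4 members without an animal. S1pr2 ranged from -0.46 to 0.11, changing sign without WT animal 2, and Klf2 from -0.0028 to 0.085 and Selplg from -0.026 to 0.060, changing sign without WT animal 3. For the difference of the piece effect, 199 genes became 0 with no replicate block, 1218 with 1 member, Sphk1, with no filter, 514 with DESeq2 and 0 to 536 without an animal. There Gpr183 ranged from -0.032 to 0.43 and Selplg from -0.12 to 0.043, changing sign without SB animal 1, and S1pr2 from -0.18 to 0.38 and S1pr4 from -0.0076 to 0.12, changing sign without WT animal 2. Among WT animals, 52 genes and 0 members became 726 and 1 with no filter. With 3 animals a group and 1 spleen each, p-values cover the spread between these animals only.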
